A study of Saccharomyces cerevisiae with 24 samples.

Results

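The yeast regulator Yrr1 belongs to the zinc cluster family of transcription factors and switches on genes of drug resistance, some of which encode pumps for toxic compounds. 4-nitroquinoline-N-oxide (4NQO) is a compound that damages DNA after cells metabolise it, and the Snq2 transporter pumps it out. Zinc cluster factors bind short DNA elements with a CGG core, and Yrr1 binds the promoters of SNQ2, SNG1 and of its own gene.

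The comparison here is exposure to 4NQO against plain medium in cells that carry the YRR1 allele of the clinical isolate YJM789. It rests on 6 chromatin immunoprecipitation (ChIP) libraries of the 18 in the series, chosen by their labels. In 3 of them the cells had grown in YPD, the usual rich broth, to which 4NQO was added at 0.25 µg/ml for 2.5 h. In the other 3 they had grown in YPD alone. All cells were of strain S96, a laboratory background, with their own YRR1 deleted and a Myc-tagged YJM789 copy of YRR1 put in, so the factor is an introduced copy in a foreign background. Chromatin was pulled down with an antibody to Myc. Each medium has 1 input library (DNA sequenced without pull-down), set against all 3 of its ChIP libraries, so a difference between media cannot be told apart from a difference between the 2 inputs. The labels speak in one place of triplicate cultures and in another of a smaller number of replicate cultures split between the media. The p-values therefore describe how far the libraries scatter, and part of that scatter may be technical. No library of untagged cells was analysed here.

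The main readout is the rise, taken from a deposited table of 1711 regions. At the strongest point of a region, input coverage is taken from ChIP coverage, and the same difference averaged over the surroundings is then subtracted, in the authors' coverage units. Regions are named after the gene whose start codon lies at most 500 bp downstream of the centre, else after the gene they lie in, else after the nearest gene. Positions are on sacCer3, counted from 1.

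The promoters of SNQ2, SNG1 and YRR1 and the IRT1 site are shown first, since the results begin with them. They are given as 121-base windows of the RefSeq sacCer3 sequence, plus strand. Capitals mark matches, on either strand, to a 9-letter form of the recognition element: A or T, then CCG, C or T, G, G or T, and a pair of letters that are each A or T. Of 99754 windows of the same length tiling the nuclear genome, 1.12% held a match, so a match describes the letters only. The SNQ2 window (chrIV:465279-465399) holds 3 matches, 2 of them overlapping. The SNG1 (chrVII:894425-894545) and IRT1 (chrX:607293-607413) windows hold 1 each, and that of YRR1 (chrXV:642196-642316) holds 2 that overlap.
SNQ2: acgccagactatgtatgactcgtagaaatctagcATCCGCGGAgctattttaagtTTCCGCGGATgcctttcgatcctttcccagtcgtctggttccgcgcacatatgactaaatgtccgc
SNG1: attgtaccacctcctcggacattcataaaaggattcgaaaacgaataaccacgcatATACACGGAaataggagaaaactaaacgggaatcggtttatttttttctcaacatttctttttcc
IRT1: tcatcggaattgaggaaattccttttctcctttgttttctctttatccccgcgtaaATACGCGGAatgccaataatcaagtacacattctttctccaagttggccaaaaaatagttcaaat
YRR1: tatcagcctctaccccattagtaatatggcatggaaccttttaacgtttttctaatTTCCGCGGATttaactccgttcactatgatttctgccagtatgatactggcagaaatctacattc

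The windows of the most changed chromosome ends are of another kind. They are centred on the strongest point and consist of the irregular T and G repeat of budding yeast telomeres, or its complement, with no match to the element. The first lies near YNR077C at the right end of chromosome XIV (chrXIV:784063-784183) and the second near YCL075W at the left end of chromosome III (chrIII:140-260).
YNR077C: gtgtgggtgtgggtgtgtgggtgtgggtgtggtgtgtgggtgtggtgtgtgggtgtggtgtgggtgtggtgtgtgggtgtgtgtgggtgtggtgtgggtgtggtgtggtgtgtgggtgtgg
YCL075W: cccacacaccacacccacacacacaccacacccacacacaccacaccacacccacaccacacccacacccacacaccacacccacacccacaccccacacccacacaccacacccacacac

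The 6 libraries differed by medium before any single region was looked at. The authors' MACS2 lists held 518, 422 and 30 ChIP peaks in the 4NQO libraries, and 6, 7 and 12 in the YPD libraries. Nuclear peaks of the reverse test, where input exceeded ChIP, numbered 26, 36 and 27 in 4NQO and 114, 152 and 130 in YPD. The median rise over the tested regions was 33.4, 32.8 and 28.5 in 4NQO and 26.1, 27.2 and 27.4 in YPD. The median ChIP minus input difference of the surroundings was 13.2, 12.5 and 7.93 in 4NQO, against 0.181, −5.64 and −2.19 in YPD. None of these measures overlapped between media, and each reached an exact two-sided permutation p of 0.1, the smallest that 3 libraries against 3 allow. Replicate 3 in 4NQO stood apart from the other two 4NQO libraries in its number of peaks, while its reverse-test peaks lay among theirs.

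**Figure D1:**
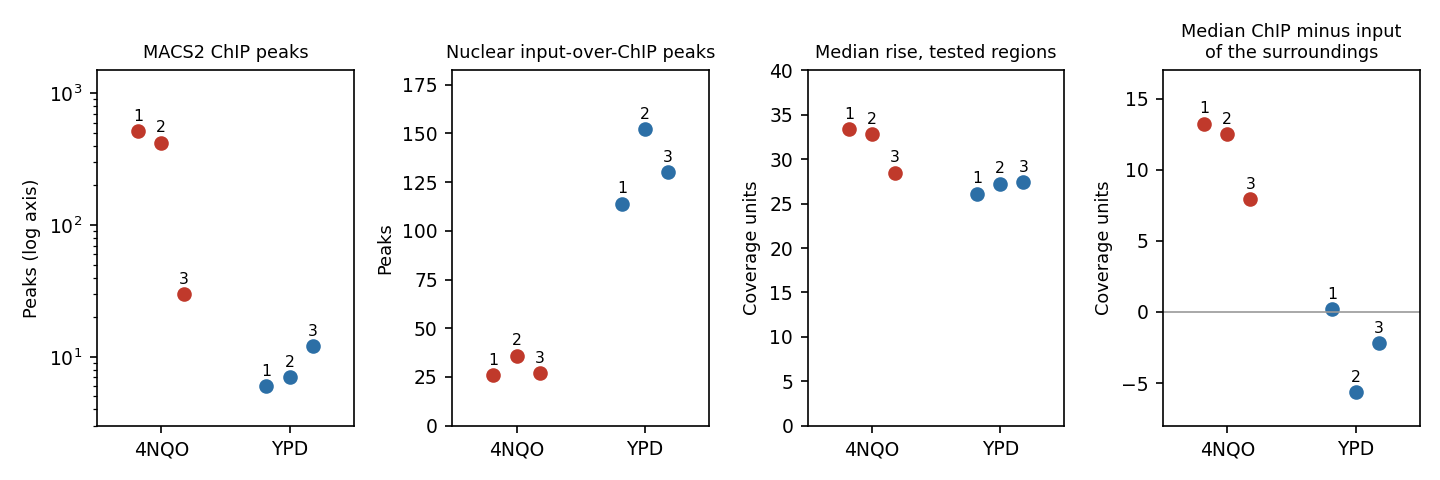
Measures of each ChIP library with the YJM789 allele, 4NQO on the left and YPD on the right of each panel, with the replicate number above each point. Peaks are counts (ChIP peaks on a log axis), and the other panels are medians over tested regions in coverage units. In 4NQO the ChIP peaks run from 30 to 518, in YPD from 6 to 12.

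At the SNQ2 promoter (chrIV:464940-465905), which drives the gene of the 4NQO exporter, the rise was 235.5, 273.0 and 217.4 in 4NQO, and 197.0, 200.7 and 191.2 in YPD. Every 4NQO library lay above every YPD library. The log2 change was 0.29 ± 0.09 (SE; limma on log2(rise + 1), Benjamini-Hochberg adjusted p = 0.0441). That lies close to the median change over all 1350 tested regions, 0.25, the call was kept in 1 of 6 fits that each left out a library, and with the libraries' medians set equal the SNQ2 change was 0.08 (limma adjusted p = 0.703). MACS2's fold enrichment at the same promoter, given per library by the authors, ran the other way. It was 3.17, 3.32 and 2.81 in 4NQO and 3.68, 3.75 and 3.75 in YPD, again with no overlap. The summit pileup was 179.5, 188.5 and 162.0 in 4NQO and 190.5, 184.0 and 191.0 in YPD. Rise and fold thus order the media differently at SNQ2, and the lowest background pileup of the libraries, 34.9 in each 4NQO library and 43.5 to 48.0 in YPD, differs between the groups too.

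SNG1, whose product gives resistance to nitrosoguanidine, was the known target with the clearest difference (promoter region chrVII:893849-894948). Its rise was 136.3, 139.6 and 122.5 in 4NQO, against 81.0, 68.5 and 63.3 in YPD. All 4NQO libraries were above all YPD libraries. The log2 change was 0.90 ± 0.21 (limma adjusted p = 0.00757), and the call was kept with each of the 6 libraries left out in turn. Setting the libraries' medians equal left a change of 0.68 at a limma adjusted p of 0.0583. The MACS2 fold at SNG1 was 2.99, 2.56 and 2.14 in 4NQO and 2.13, 1.81 and 1.97 in YPD, so here both readouts were higher in 4NQO. The capitalised match lies at 894481 to 894489. The strongest points lay at 894391, 894478 and 894509 in 4NQO, and at 894497, 894338 and 894402 in YPD. Their medians were 7 bp and 83 bp from the centre of the match, while the single points were scattered in both media. The authors' deposited CisGenome table, a second peak caller's output, lists a peak at SNG1 in 4NQO under 3 of its 4 settings. In YPD it lists none there, and all its peaks are at a false discovery rate of 1. By setting, that table holds 69, 74, 60 and 79 peaks in 4NQO, beside 3, 6, 2 and 4 in YPD. A peak in 4NQO without one in YPD is thus common in it and not particular to SNG1.

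IRT1 and YRR1 did not separate by medium. IRT1, a noncoding RNA gene across the promoter of the meiotic regulator gene IME1 (chrX:606408-607949), had a rise of 237.1, 222.0 and 269.7 in 4NQO, and 214.9, 227.9 and 252.4 in YPD. These values overlap, and the log2 change was 0.07 ± 0.11 (limma adjusted p = 0.792), turning to −0.15 with medians set equal. The YRR1 promoter (chrXV:642006-642721) gave 48.3, 27.8 and 44.0 in 4NQO, against 26.6, 43.4 and 76.4 in YPD, a log2 change of −0.19 ± 0.35 (limma adjusted p = 0.808). The cells lack their own YRR1 and carry an introduced one, and the labels do not say how much of the promoter was deleted or put in, so the copies behind these reads are uncertain.

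The drug resistance list held 9 tested regions, of which 2 passed the test, both higher (SNQ2 and SNG1), against 6.15% of all tested regions that were higher in 4NQO and 0.667% that were lower. Its median log2 change was 0.29, beside 0.25 over all tested regions. The other members did not pass. The promoter of APD1 had lower values, 35.0, 30.1 and 30.4 in 4NQO and 39.2, 64.3 and 53.8 in YPD, with no overlap but a limma adjusted p of 0.241. The region at SLA1 that reaches into PDR3, the gene of another zinc cluster regulator of drug resistance, had a log2 change of 0.69 (limma adjusted p = 0.137). Changes were −0.03 inside PDR5, a drug exporter gene, −0.17 at TPO1, a polyamine exporter gene, 0.34 inside YRR1 and 0.39 at YLR179C, with adjusted p from 0.624 to 0.972.

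**Figure D2:**
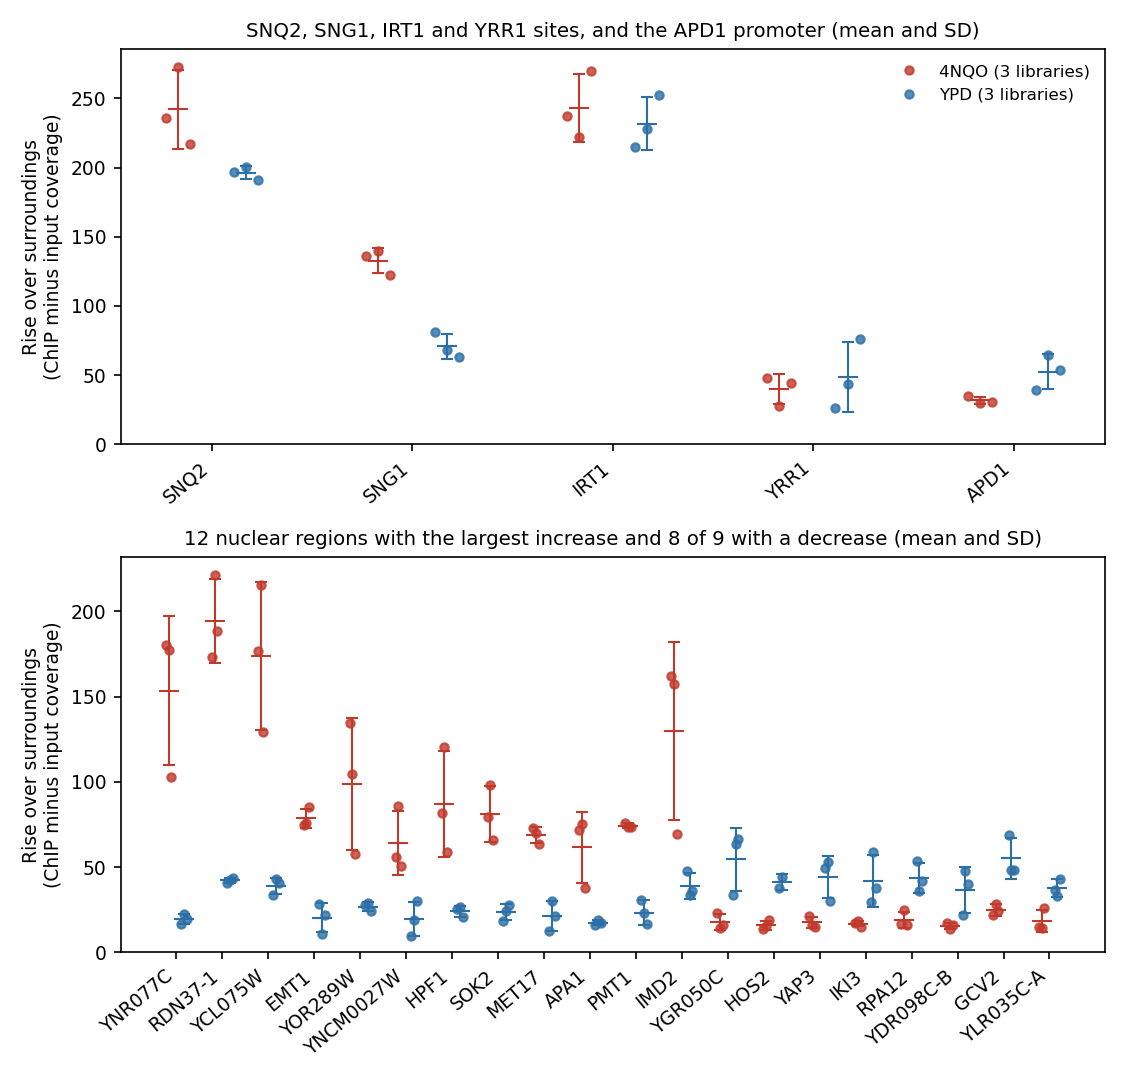
Rise over surroundings in each library (points), with mean and SD, 4NQO left of YPD at each region, in ChIP minus input coverage units. The upper panel holds the SNQ2, SNG1, IRT1 and YRR1 sites and APD1, with IRT1 overlapping between media and SNG1 apart. The lower panel holds the 12 nuclear regions with the largest increase, led by YNR077C, then 8 of the 9 with a decrease, led by YGR050C.

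Over all tested regions, 83 were higher in 4NQO and 9 lower by limma at an adjusted p of 0.05, together 6.81%, and 275 had an unadjusted p under 0.05. Of 1198 regions with all 6 values, 20.7% had every 4NQO library above every YPD library and 4.17% every one below. Of the called nuclear regions, 66 of 75 higher and 8 of 9 lower ones lay apart in this way. With the libraries' medians set equal the split was 35 higher and 16 lower. Of the 83, 75 were nuclear, 7 mitochondrial and 1 the 2-micron plasmid, and all 9 lower regions were nuclear. The count without 4NQO replicate 3 was 106 higher and 5 lower. Without 4NQO replicate 1 it was 47 and 4, without replicate 2 40 and 3, and without YPD replicates 1, 2 and 3 it was 39 and 4, 51 and 3, and 49 and 3. Of the 92 calls, 30 were kept with each of the 6 libraries left out in turn, 28 higher and 2 lower.

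**Figure D3:**
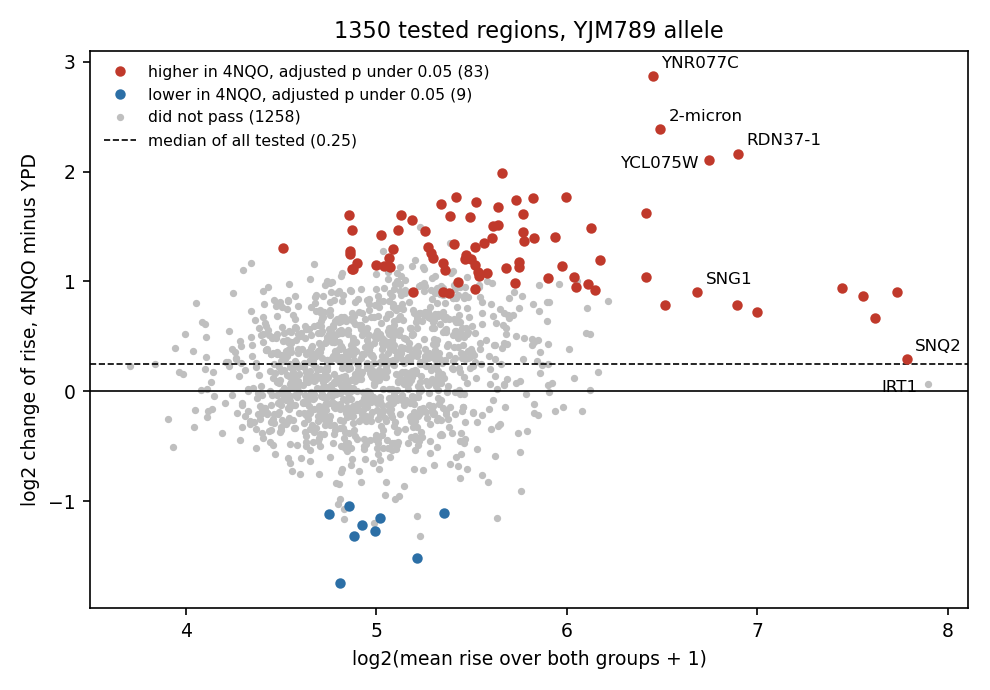
Log2 change of the rise, 4NQO minus YPD, against the log2 mean rise for the 1350 tested regions. Red points (83) were higher in 4NQO and blue points (9) lower by limma, grey points did not pass, and the dashed line is the median change, 0.25. SNQ2 sits near the dashed line and IRT1 below it.

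The nuclear regions with the highest log2 change were telomeric or repeated DNA. The right end of chromosome XIV, near YNR077C (chrXIV:783435-784333), had a rise of 180.5, 177.1 and 103.0 in 4NQO, against 16.7, 22.6 and 19.6 in YPD. The log2 change was 2.87 ± 0.29 (limma adjusted p = 3.10e-08), a ratio of means of 7.83. Its MACS2 fold was 4.23, 4.13 and 2.96 in 4NQO, above that of SNQ2 in each of the same libraries, and no YPD library had a peak. In 4NQO the strongest point lay at 784122, 784123 and 784123, inside the repeat shown above. In 1 YPD library the reverse test called input above ChIP there.

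The left end of chromosome III, near YCL075W (chrIII:1-1187), had a rise of 176.7, 215.8 and 129.3 in 4NQO, and 33.6, 42.8 and 40.5 in YPD. The log2 change was 2.11 ± 0.24 (limma adjusted p = 2.66e-07). All 3 4NQO libraries had a MACS2 peak, with folds of 3.81, 4.42 and 3.08, and the reverse test called input above ChIP in 2 YPD libraries. The surroundings differed as well, at 3.21, 8.42 and 4.95 in 4NQO and −31.3, −31.0 and −37.0 in YPD.

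Telomeric repeats were then looked for in every region within 15 kb of a chromosome end, as an unbroken run of at least 40 bases of only T and G, or only A and C. This class was chosen after its values were seen, so its counts are a description. It held 17 regions, of which 14 could be tested and 8 were higher in 4NQO and 0 lower, beside 6.15% and 0.667% of all tested regions, with a median log2 change of 0.93. Besides YNR077C and YCL075W, these were the regions near IMD2 (1.62), YHR219W (1.45), GEX2 (1.40) and YFL064C (1.04), and those at YLL066W-B (0.97) and PAU18 (0.78). Calls at 4 of the 8 (YNR077C, YCL075W, IMD2 and PAU18) were kept in all 6 fits that each left out a library, and that at YLL066W-B in 2. Of the 17, 11 had a ChIP peak in at least 2 4NQO libraries and 0 in YPD, beside 15.3% and 0.234% of all 1711 regions. The reverse test found input above ChIP in 2 or more libraries at 1 of the 17 in 4NQO and at 12 in YPD, beside 1.85% and 7.04% of all tested regions. The part of the input libraries in these changes was not tested. Reads from such repeats can map to several chromosome ends, so the end at which a value is listed is uncertain.

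Some of the same 14 telomeric regions were also higher in 4NQO with the other alleles. With S96 4 of the 14 were higher and 0 lower (median 0.38), against 1.41% of all regions higher, and with S96-I775E 5 of the 14 were higher and 0 lower (median 0.65), against 1.93%. The test of the difference between alleles passed for YNR077C against S96 (1.72, limma adjusted p = 0.0193) and for IMD2 against S96-I775E (1.68, limma adjusted p = 0.0107), and for no other telomeric region described here. With medians set equal, YNR077C no longer passed (1.37, limma adjusted p = 0.091).

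Distance to the end without regard to the repeat gave a weaker picture. Within 15 kb of an end, 12 of 52 tested regions were higher and 0 lower, beside 6.15% and 0.667% of all tested regions, with a median of 0.43. The 12 include the 8 telomeric regions named above, so the 2 counts are not separate. Limits of 5, 10, 20 and 50 kb, all looked at, gave 7 of 31, 10 of 47, 12 of 60 and 15 of 135, with medians of 0.39, 0.39, 0.38 and 0.32.

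**Figure D4:**
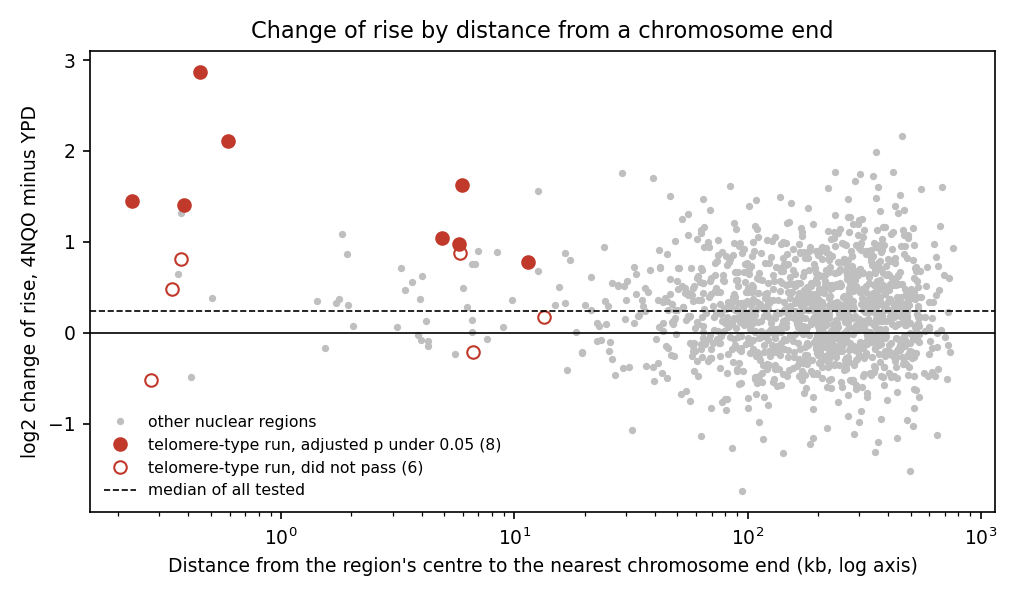
Log2 change of the rise, 4NQO minus YPD, for the tested nuclear regions against the distance from the region's centre to the nearest chromosome end (kb, log axis). Red circles hold a run of at least 40 bases of T and G alone or of A and C alone within 15 kb of an end, filled for the 8 that were higher by limma and open for the 6 that did not pass.

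Multicopy DNAs were higher too, in a different way. The ribosomal DNA region RDN37-1 (chrXII:451468-468838) had a rise of 173.1, 221.3 and 188.4 in 4NQO, against 40.8, 42.5 and 43.6 in YPD, a log2 change of 2.17 ± 0.25 (limma adjusted p = 5.11e-07). The 2-micron plasmid gave 122.7, 161.0 and 165.5 in 4NQO and 20.9, 32.2 and 31.0 in YPD, a change of 2.39 ± 0.23 (limma adjusted p = 2.60e-08). In both, input exceeded ChIP over the surroundings in 4NQO. That difference was −78.7, −105.9 and −125.5 at the ribosomal DNA in 4NQO, beside −22.3, 30.5 and 26.8 in YPD. At the plasmid it was −100.4, −127.1 and −138.8 in 4NQO, beside −28.1, 24.4 and 20.7 in YPD. The strongest point in 4NQO also lay at the rim, 11 to 16 bp from the edge of the ribosomal DNA region and 43 bp from the edge of the plasmid region. In YPD it lay at least 5511 bp and 767 bp from those edges. The reverse test called input above ChIP in all 3 4NQO libraries at both, in 1 YPD library at the ribosomal DNA and in 0 at the plasmid.

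Of 8 tested regions of the mitochondrial genome, 7 were higher in 4NQO and 0 lower, beside 6.15% and 0.667% of all tested regions. Their median log2 change was 0.82. The longest COX1 region, COX1 being a gene of cytochrome oxidase, gave 283.8, 285.1 and 258.8 in 4NQO and 158.5, 132.2 and 150.4 in YPD, a log2 change of 0.91 ± 0.08 (limma adjusted p = 2.60e-08). Its surroundings were at −289.2, −287.8 and −260.2 in 4NQO and at −169.5, −142.9 and −161.2 in YPD, so input exceeded ChIP there in every library. This input excess was larger than the rise in each library, so input exceeded ChIP at the strongest point too. The higher rise in 4NQO thus went with a deeper input excess around the point, not with ChIP above input. Its strongest point was at the region's edge in all 4NQO libraries, and at most 21 bp from it in YPD. At the COB and 21S_RRNA regions the changes ran from 0.78 to 0.94. Over the COX1, COB and 21S_RRNA regions, 6 in all, the strongest points lay at most 34 bp from an edge in either medium, apart from 1 COX1 point at 82 bp and 1 21S_RRNA point at 747 bp, both in 4NQO. MACS2 called no ChIP peak in at least 2 libraries at any mitochondrial region.

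Outside the telomeric and multicopy DNA described above, the regions with the highest changes lay at genes of varied function, several of them with a tRNA gene. EMT1, a methionine tRNA gene (chrIV:1175497-1176145), had a rise of 75.0, 75.7 and 85.1 in 4NQO, against 28.3, 10.97 and 21.9 in YPD (log2 change 1.99 ± 0.34, limma adjusted p = 0.000415). It had a MACS2 peak in all 3 4NQO libraries, at folds of 1.83, 1.84 and 1.89. HPF1, a cell wall mannoprotein gene (chrXV:28429-29364), had 81.7, 120.7 and 58.9 in 4NQO, and 25.5, 26.5 and 20.4 in YPD (1.76 ± 0.34, limma adjusted p = 0.00191), with folds of 2.34, 2.39 and 1.84. Neither gene had a MACS2 peak in YPD.

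Others of the 12 nuclear regions with the highest change had a MACS2 peak in fewer 4NQO libraries. PMT1, a protein O-mannosyltransferase gene (chrIV:286972-287475), had a rise of 76.1, 73.4 and 73.3 in 4NQO, against 30.6, 22.9 and 16.4 in YPD (log2 change 1.67 ± 0.35, limma adjusted p = 0.0035). MET17, a gene of sulphur amino acid synthesis (chrXII:731764-732357), had 72.8, 70.3 and 63.3 in 4NQO and 12.8, 29.8 and 21.3 in YPD (1.72 ± 0.34, limma adjusted p = 0.00191), and its region also covers a leucine tRNA gene. The 4NQO libraries agree closely at both, and lie well above the YPD libraries. SOK2, a regulator of filamentous growth, rose by 1.75 on the log2 scale, APA1 by 1.705, YOR289W with an alanine tRNA gene by 1.77 and YNCM0027W by 1.77. HYM1 with a leucine tRNA gene, just outside those 12, rose by 1.61.

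Among gene groups, glycolysis and fermentation genes had 23 tested regions, of which 3 were higher and 0 lower, beside 6.15% and 0.667% of all tested regions. Their median log2 change was 0.46, beside 0.25 over all tested regions. TPI1, triose phosphate isomerase, had 79.5, 70.3 and 50.3 in 4NQO, against 18.6, 26.1 and 19.6 in YPD (1.58 ± 0.30, limma adjusted p = 0.00113). PFK2, a phosphofructokinase subunit, rose by 1.14 and PDC1, pyruvate decarboxylase, by 1.04. At PFK2 the reverse test also called input above ChIP in all 3 4NQO libraries, and at PDC1 in 2.

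Ribosomal protein genes had 114 tested regions, 8 higher and 1 lower, with a median of 0.26, and translation factor genes 27, 2 higher (ANB1 at 1.60 and EFB1 at 1.21) and 0 lower, with a median of 0.21. Both medians lie near that of all tested regions. So do the shares that were higher, beside 6.15% of all tested regions higher and 0.667% lower. RPL29 (1.51), RPL4A (1.24) and RPL33A (1.20) were among those higher, and the calls at these 3 and at ANB1 and EFB1 were kept in 2 or 3 of the 6 fits that each left out a library. Of 30 regions at cell wall genes, 3 were higher (HPF1, PMT1 and SPI1, the last at 1.46) and 0 lower, beside the same 6.15% and 0.667%. Their median was 0.26. Ribosomal protein genes are among the most transcribed in growing cells, and many come as near-identical pairs, so reads there can be shared between copies.

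General stress genes had 6 tested regions, 1 higher and 0 lower, with a median of 0.62. That one was TPS1, of trehalose synthesis, at 42.3, 47.9 and 50.2 in 4NQO, against 25.3, 23.5 and 24.6 in YPD (log2 change 0.90 ± 0.28, limma adjusted p = 0.048), a call lost with each of the 6 libraries left out in turn. None of the 9 DNA damage regions passed (median −0.01), nor any of the 9 of oxidative stress (median 0.01) or the 7 of respiration (median −0.15). With 6.81% of all tested regions called, lists of this size can hold no call without differing from that share. The members with the greatest change in size were UBC13, of DNA damage tolerance (0.97, limma adjusted p = 0.125), AHP1, a peroxiredoxin gene next to CCW12 (0.93, limma adjusted p = 0.1), and the region shared by PUT3 and ATP7, a subunit gene of ATP synthase (0.81, limma adjusted p = 0.0771).

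Transfer RNA genes were frequent among the higher regions. Of 208 tested nuclear regions with a tRNA gene, 20 were higher and 1 lower, with a median log2 change of 0.31. They made up 26.7% of the 75 nuclear higher regions, beside 15.5% of all tested nuclear regions. SUP17, a serine tRNA gene (chrIX:248423-249499), carried a ChIP peak in every 4NQO library and in 1 YPD library. Its rise was 100.6, 93.4 and 104.4 in 4NQO, against 43.6, 38.1 and 46.9 in YPD (1.20 ± 0.28, limma adjusted p = 0.00757). Genes of one tRNA type are nearly identical, so their reads are uncertain in origin.

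The 9 regions that were lower in 4NQO lay mostly in promoters, 7 of 9, beside 26.9% of tested nuclear regions. YGR050C had a rise of 23.0, 14.4 and 16.1 in 4NQO, against 33.4, 63.4 and 66.6 in YPD (log2 change −1.52 ± 0.31, limma adjusted p = 0.00336), and its call was kept with each of the 6 libraries left out in turn. Others were HOS2, a histone deacetylase gene (−1.32), YAP3 (−1.27), IKI3 of the Elongator complex (−1.22), RPA12 of RNA polymerase I (−1.15), YDR098C-B of a Ty1 retrotransposon (−1.12), GCV2 of glycine breakdown (−1.11) and YLR035C-A (−1.04). None had a ChIP peak in at least 2 libraries of either medium. In all 9 the surroundings were higher in 4NQO, with a median of 8.42 against −17.5 in YPD. The same held at 1000 of the 1341 tested nuclear regions, with medians of 11.4 and −2.05, and at 42 of the 75 higher ones. The rise subtracts the surroundings, and their part in these changes was not tested.

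The higher and lower nuclear regions differed in where the strongest point fell. In the 75 higher ones, the 3 libraries' strongest points spanned a median of 44 bp in 4NQO and 253 bp in YPD. In the 9 lower ones they spanned 152 bp in 4NQO and 48 bp in YPD, and over all tested nuclear regions 137 and 174 bp. Of the 71 higher regions with a point in all 6 libraries, the span was narrower in 4NQO at 61 and narrower in YPD at 10. Of 8 such lower regions it was narrower in 4NQO at 2 and in YPD at 6, and of 1189 tested nuclear regions at 688 and 501. YFL064C is one of the higher regions with the narrower span in YPD, where the point lay at 4751 in all 3 libraries. The regions were chosen by the rise at these same points, so the spans are a description. Matches to the recognition element were in 8.0% of the 75 higher regions, 0 of the 9 lower ones and 8.7% of all tested nuclear regions. Of the 75, 17 were promoter regions (22.7%), 50 lay in genes and 8 near them.

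MACS2 peaks and the rise overlapped in part. Of the 75 higher nuclear regions, 30 had a ChIP peak in at least 2 4NQO libraries (40%, beside 18.4% of all tested nuclear regions) and 31 had none in any. Of the 247 tested regions with such a peak, 30 were higher by the rise (12.1%, beside 6.15% of all tested regions) and 0 lower, with a median log2 change of 0.42. Both readouts come from the same libraries and are not independent. The MACS2 peaks lay where coverage was raised broadly. At the 245 tested regions with a peak in both 4NQO replicates 1 and 2, the median surroundings difference was 31.9, 31.2 and 14.2 in 4NQO, against 3.12, −7.43 and −1.83 in YPD. The median rise there was 44.5, 42.8 and 32.6 in 4NQO, and 29.9, 31.6 and 31.2 in YPD. The surroundings thus separate the media in every library, and the rise of replicate 3 lies next to the YPD values. Replicates 1 and 2 served to choose these regions, so their raised values follow in part from that choice. Over all tested regions the surroundings separated the media too, at 13.2, 12.5 and 7.93 in 4NQO and 0.181, −5.64 and −2.19 in YPD.

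Replicate 3 gave a further look at those regions, since its own peaks played no part in choosing them, though it shares the input library with replicates 1 and 2. Its rise exceeded that of all YPD libraries at 89 of 248 such regions with all values (35.9%), beside 486 of 1383 regions of the whole table (35.1%). Its surroundings difference exceeded that of all YPD libraries at 208 of the 248 (83.9%), beside 826 of the 1383 (59.7%). A peak in replicates 1 and 2 thus went with broadly raised coverage in replicate 3 more often than in the whole table, and with a higher local rise about as often as there. Bound regions counted from peaks in at least 2 libraries stood at 273 in 4NQO and 4 in YPD. Of the 273, 251 rested on replicates 1 and 2 alone, and 20 had a peak in all 3 libraries, against 3 in YPD. The region at RRT15 had peaks in all 3 4NQO libraries and could not be tested. It lies beside the ribosomal DNA, with folds of 2.88, 2.75 and 2.46 in 4NQO, and in YPD it has no rise listed and input above ChIP in all 3 libraries.

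The change in 4NQO was set against that with the other alleles by a direct test, in which each allele had its own 4NQO and YPD libraries. Each allele and medium had 1 input library, so these differences cannot be told apart from differences between inputs. Nuclear reverse-test peaks numbered 332, 432 and 393 in the S96 YPD libraries, beside 114, 152 and 130 with YJM789. The median change over all tested regions was 0.25 with YJM789, −0.13 with S96 and 0.09 with S96-I775E. Against S96 it was larger with YJM789 at 48 regions (3.56%) and smaller at 5 (0.37%), and against S96-I775E larger at 22 (1.63%) and smaller at 5 (0.37%). With medians set equal these became 4 larger and 5 smaller against S96, and 11 larger and 7 smaller against S96-I775E. At SNG1 the change was 0.90 with YJM789 and −0.58 with S96, the latter at a limma adjusted p of 0.116. The difference was 1.48 ± 0.30 (limma adjusted p = 0.0074), kept with each of the 12 libraries left out. With medians set equal it was 1.14 (limma adjusted p = 0.0559). With S96-I775E the SNG1 change was −0.12, and the difference of 1.02 did not pass (limma adjusted p = 0.0707). At SNQ2 the change was 0.29 with YJM789, −0.04 with S96 and 0.45 with S96-I775E, and neither difference passed (limma adjusted p = 0.117 and 0.59). At IRT1 the differences were 0.47 against S96 and −0.25 against S96-I775E (limma adjusted p = 0.082 and 0.452).

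**Figure D5:**
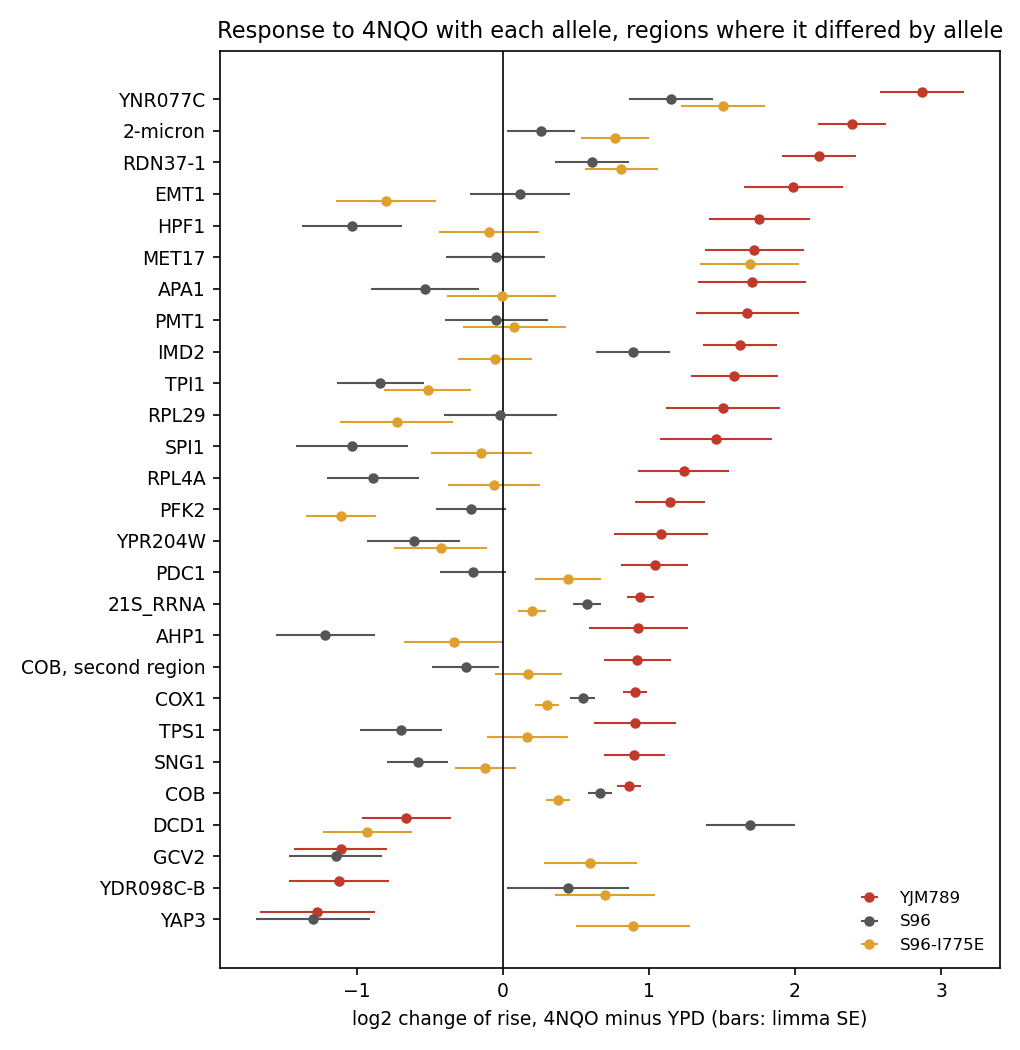
Log2 change of the rise, 4NQO minus YPD, with its limma SE, for the YJM789 allele and the 2 others at each named region where the response differed by limma from that of at least 1 other allele. At SNG1 the YJM789 point is at 0.90 and the S96 point at −0.58.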

How the data were processed

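Reads had been processed by the authors. Bowtie2 2.2.3, CASAVA 1.7, MACS2 2.1.0 and sacCer3 appear in the submitters' processing notes, with no order; largest coordinates fit the R64 reference. Values used, per the file headers, are a deposited region signal (the rise, empty where no point is listed), deposited scores (the ChIP minus input coverage difference at the strongest point and over its surroundings), and for deposited MACS2 peaks of the set marked mn a pileup signal, a fold ratio and −log10 p and q values (the lowest −log10 q is 1.3). The deposited CisGenome table gives a log2 fold and a false discovery rate, a fraction. Depth is unknown, so no counting interval is given. Columns of values not used number 7.

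Tests used limma 3.58.1 (R 4.3.3) with a mean-variance trend on log2(rise + 1), over 18 ChIP libraries in 6 groups, for regions with at least 2 values in every group (1350 of 1711, so 361 were not tested), with Benjamini-Hochberg adjustment at 0.05. A fold on this scale understates changes of low values. The test was tried on simulated data with known changes. Merged peaks needed 1 bp of overlap. Python 3.11.15 made the counts. Members and lists were chosen with earlier results of these data known; 343 of 345 list genes matched. Named regions were the drug resistance members and IRT1, the 12 nuclear regions with the largest change each way among those past the threshold, up to 4 members each way of each list, the 10 with the highest MACS2 fold in 4NQO, and repeats; 1 of the lower regions is not reported here. The labels do not say that the replicate number marks a shared culture, so no pairing was used in the main fit. Same-numbered libraries did not deviate together across regions, which cannot settle whether cultures were shared.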

Additional observations from a re-analysis of the deposited data

Results flagged for a closer look

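The response to 4NQO, as the log2 change of the rise, differed between the YJM789 allele and another allele at the regions below, by limma's test of the difference itself with adjustment over all tested regions. Values are the response with YJM789 minus that with the other allele. They are given without explanation, and cannot be told apart from differences between the single input libraries of each allele and medium.

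With S96 the change was −0.58 at the SNG1 promoter and −0.84 at TPI1, and neither passed (limma adjusted p = 0.116 for each). Against S96 the response with YJM789 was larger by 1.48 at SNG1 and 2.42 at TPI1. It was larger by 2.79 at HPF1, 2.49 at SPI1 and 1.72 at PMT1, the cell wall genes. The difference was 1.24 at PDC1, 1.36 at PFK2, 1.60 at TPS1 and 2.13 at RPL4A. It was 2.24 at APA1, 1.77 at MET17, 2.14 at AHP1 and 1.87 at EMT1. At chromosome ends it was 1.72 at YNR077C and 1.69 at YPR204W. Among multicopy DNAs it was 1.56 at RDN37-1, 2.13 at the 2-micron plasmid and 1.17 at the COB region whose strongest point lay at 44797. The other COB region, with strongest points from 36411 to 36429, did not pass (0.20, limma adjusted p = 0.341). DCD1 went the other way, with a difference of −2.35: its change was −0.66 with YJM789 (limma adjusted p = 0.209) and 1.69 with S96. Of the 19 differences that passed, 5 were kept with library medians set equal and 7 with each library left out in turn.

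Against S96-I775E the response with YJM789 was larger by 2.099 at TPI1, 2.25 at PFK2, 2.79 at EMT1, 1.85 at HPF1, 2.24 at RPL29 and 1.68 at IMD2. It was larger by 1.62 at the 2-micron plasmid and 1.35 at RDN37-1. In the mitochondrial genome the difference was 0.60 at COX1, 0.74 at 21S_RRNA and 0.49 at the COB region with strongest points from 36411 to 36429. The COB region with its point at 44797, which passed against S96, did not pass here (0.75, limma adjusted p = 0.217). The difference was negative at YAP3 (−2.16), YDR098C-B (−1.82) and GCV2 (−1.71). Of the 14 differences that passed, 10 were kept with library medians set equal and 6 with each library left out in turn.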

How the results depend on the processing

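With library medians set equal, the regions higher and lower in 4NQO numbered 35 and 16, and the median change fell to 0.03. Taking empty entries as 0 left 66 and 1, the m2 peak set 74 and 3, and a fit of only the 2 groups 56 and 5. The fit with a replicate block gave 36 and 1, although same-numbered libraries did not deviate together (correlations of −0.01, 0.04 and 0.01). Leaving out 1 library gave 39 to 106 higher and 3 to 5 lower. Other settings kept both counts within 1.5 times, among them a fit on nuclear regions only (66 and 7, chosen after seeing the data). Differences from S96 in either direction, 53, became 9 with medians set equal and 85 with empty entries as 0, and ran from 21 to 96 with 1 library left out. Those from S96-I775E, 27, became 16 with m2 and ran from 9 to 42. Bound regions in 4NQO were 20 when all 3 libraries had to agree and 42 at a fold of at least 2 (2 in YPD), and 21 to 271 without 1 library. Among called regions 3 changed sign: RSC30 (−1.03) and HOS2 (0.48) with empty entries as 0, and YNCJ0011W (−0.51) with m2. Among uncalled ones IRT1 was −0.15 with medians set equal and −0.011 to 0.13 without 1 library. CCP1 was −0.89 with empty entries as 0 and SDH2 0.34 with m2. Without 1 library, TPO1 ran from −0.50 to 0.077, PDR5 from −0.61 to 0.31 and the YRR1 promoter from −0.55 to 0.19. The cause of these moves was not tested. Of the 92 calls, 44 held with medians set equal and 19 in every setting that gave a value, among them YNR077C, YCL075W, TPI1, HPF1, PMT1, RDN37-1 and the 2-micron plasmid. Read depth is unknown, so it is not known which low values are limited by it.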

Other observations

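Further regions were higher in 4NQO beyond those described above. They are named here after their values were seen. GPP1, whose product makes glycerol, had a rise of 107.3, 82.0 and 69.4 in 4NQO, against 48.5, 50.7 and 33.6 in YPD (log2 change 0.95, limma adjusted p = 0.0359), with a MACS2 peak in every 4NQO library and in 0 of the YPD libraries. Its region also covers a ribosomal protein gene. VMA3, a subunit of the vacuolar proton pump, had 82.7, 59.1 and 94.9 in 4NQO and 23.5, 56.3 and 17.9 in YPD (1.39, limma adjusted p = 0.0188). CYC3, which attaches haem to cytochrome c, had 99.3, 44.8 and 57.4 in 4NQO, against 19.2, 38.4 and 19.1 in YPD (1.35, limma adjusted p = 0.0155). In each case the 4NQO libraries lay above the YPD libraries. In fits that each left out 1 of the 6 libraries, the calls were kept in 1 at GPP1, 2 at VMA3 and 3 at CYC3.

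Ty1 retrotransposon regions went both ways. The regions at YJR027W were higher in 4NQO, by 1.11 and 1.47 on the log2 scale, and that at YDR098C-B was lower (−1.12). Copies of Ty1 are nearly identical, so reads cannot be placed with certainty.

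Across 1198 regions with a value in all 6 libraries, log2(rise + 1) of library pairs had a Pearson correlation of 0.52 to 0.59 within 4NQO, 0.48 to 0.52 within YPD, and 0.31 to 0.40 between a 4NQO and a YPD library. These are correlations across regions, which are not independent, and libraries of 1 medium share their input.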
